A study of Mus musculus with 14 samples.

Results

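Blood neutrophils labelled CXCR2f/f x Mrp8Cre were compared with wild-type (WT) blood neutrophils, both taken at zeitgeber time (ZT) 5, that is at clock time 12 h. The libraries were chosen by their labels alone: replicates 4 and 5 of the Cxcr2-labelled group and replicates 5, 8 and 9 of WT ZT5, 5 of the 14 libraries of the series. The CXCR2f/f x Mrp8Cre mice carry floxed Cxcr2 alleles and a Cre recombinase under the Mrp8 promoter, which is active in neutrophils and some of their precursors. The other groups were 3 libraries labelled as floxed for Bmal1 and 3 labelled as floxed for Cxcr4, both with the same Cre and at ZT5. A further 3 WT libraries were at ZT13, clock time 20 h. These groups set the comparison in context. They also entered the fit, so the spread behind each p-value was estimated from all 14 libraries. All mice were male C57BL/6 kept free of specific pathogens, 7 to 10 weeks old. After red cells had been lysed, Ly6G-stained neutrophils were sorted, and polyadenylated RNA was amplified before sequencing. WT mice carry no Cre according to the labels, so the Cre and the Cxcr2 deletion cannot be told apart in the comparison with WT. Whether each replicate is a mouse of its own is not labelled, so p-values measure the spread between these samples, which may be technical.

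Cxcr2 is the receptor on mouse neutrophils for chemokines such as Cxcl1 and Cxcl2. It couples to inhibitory G proteins, promotes the release of neutrophils from the bone marrow and guides them to inflamed tissue, while Cxcr4 retains them in and returns them to the marrow. In blood, Cxcr2 signalling is also known to promote the ageing of neutrophils over the day. NF-kB, a transcription factor that many inflammatory receptors activate, switches on its own regulators. Among them are the inhibitors Nfkbia and Tnfaip3, and Nfkbiz, which modulates NF-kB target genes. The activity of NF-kB itself was not measured in these libraries.

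The recovered reads were 4712667 and 4504679 in the Cxcr2-labelled libraries, against 6678645, 4802511 and 4931985 in WT ZT5 replicates 5, 8 and 9. Values are the deposited normalized read counts, all p-values are from limma on log2(value + 1), and a gene was called at a Benjamini-Hochberg adjusted p under 0.05 over 11255 genes tested. Genes with at least 1 read numbered 10097 and 10094 in the Cxcr2-labelled libraries, against 11022, 10747 and 10876 in WT ZT5. WT ZT5 replicate 5 stood apart from its group. Over 3724 genes whose mean log2 value was 5 or more, its log2 values differed from those of replicates 8 and 9 with an SD of 0.69 and 0.65, whereas replicates 8 and 9 differed from each other with an SD of 0.47 and the Cxcr2-labelled libraries with an SD of 0.58. Summed levels of 19 B cell and MHC class II markers were 294 and 276 in the Cxcr2-labelled libraries, against 4395, 531 and 1231 in WT ZT5 replicates 5, 8 and 9. Results are therefore also given without WT ZT5 replicate 5.

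The targeted transcript was examined first. Cxcr2 (ENSMUSG00000026180, chromosome 1, 74153989 to 74161246, GRCm38) had values of 1354 and 1439 in the Cxcr2-labelled libraries, against 1322, 2219 and 1731 in WT ZT5. The groups overlapped, and the log2 difference of -0.30 (SE 0.20) did not pass (limma adjusted p = 0.542). After quantile normalization the Cxcr2 difference was -0.66 and passed (limma adjusted p = 0.0463). The floxed part of the gene is not labelled, and a whole-gene count includes reads of any part that Cre leaves in place, so this value does not check the genotype. The group is called Cxcr2-labelled for that reason. Cxcr4 was at 423 and 370 in the Cxcr2-labelled libraries, against 268, 485 and 553 in WT ZT5, a log2 difference of -0.07 that did not pass (limma adjusted p = 0.948).

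The neighbouring receptor gene Cxcr1, whose start coordinate lies 37.8 kb from that of Cxcr2, had its highest values in the Cxcr2-labelled libraries. Cxcr1, the second receptor of this chemokine family, was at 49.1 and 42.5 in the Cxcr2-labelled libraries, against 1.91, 10.1 and 10.9 in WT ZT5. No other library of the series reached the Cxcr2-labelled values: the Bmal1-labelled libraries had 6.56, 9.11 and 19.7, the Cxcr4-labelled libraries 2.40, 0 and 0, and WT ZT13 16.1, 10.1 and 16.1. Against WT ZT5 the log2 difference of 2.68 (SE 0.85) did not pass over all genes (limma adjusted p = 0.131). Against the mean of the other Mrp8Cre groups, a comparison that uses no WT library, the log2 difference was 3.48 and passed (SE 0.76, limma adjusted p = 0.0217). Within 1000 kb of Cxcr2, 22 genes were tested, Cxcr2 included. None of them was called against WT ZT5, and Cxcr1 was the 1 gene called against the mean of the other Mrp8Cre groups.

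Across all genes, 75 were called between the Cxcr2-labelled and WT ZT5 libraries, 0.666% of those tested. Of these, 24 (0.213%) were higher and 51 (0.453%) lower in the Cxcr2-labelled libraries, and 1519 genes had an unadjusted p under 0.05. The 24 higher genes had a median level of 677 in the Cxcr2-labelled libraries and 212 in WT ZT5, with log2 differences from 0.91 to 2.95. The 51 lower genes had a median level of 5.43 in the Cxcr2-labelled libraries and 61.1 in WT ZT5, with a median log2 difference of -3.73 and a lowest of -5.36, and 11 of them had no read in either Cxcr2-labelled library. In all 75 the groups did not overlap, which was also true of 30.4% of all genes tested. The median log2 difference of all genes was -0.07, and 0.05 after quantile normalization.

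**Figure D1:**
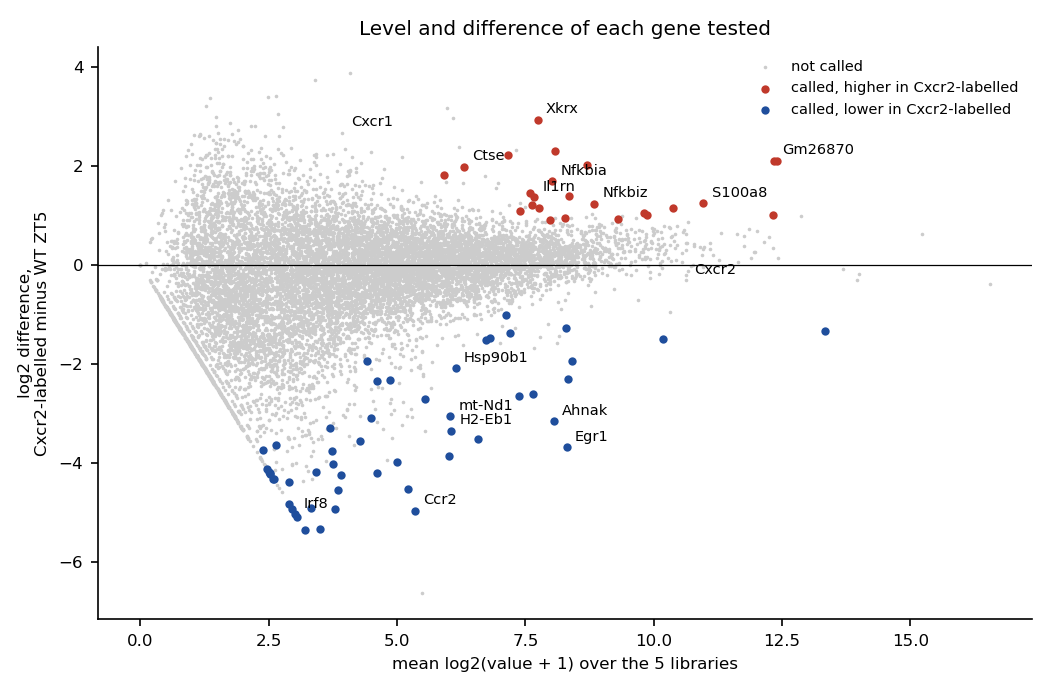
Each point is 1 of the genes tested: the x axis gives its mean log2(value + 1) over the 2 Cxcr2-labelled and 3 WT ZT5 libraries, the y axis its log2 difference, Cxcr2-labelled minus WT ZT5, with called genes in colour. The 24 higher genes lie at middle to high levels, while many of the 51 lower genes lie near the lower edge formed by genes without reads in the Cxcr2-labelled libraries.

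How many genes were called depended on single libraries. Leaving out WT ZT5 replicate 5 gave 23 called genes, and 11 of the 24 higher and 10 of the 51 lower genes kept their call. In 19 of the 24 higher genes this replicate was the lowest WT ZT5 library, which was so for 35.3% of all genes. Without Cxcr2-labelled replicate 4, 19 genes were called, all lower, and without Cxcr2-labelled replicate 5, 28 were called. With WT ZT5 replicate 8 left out the count was 199, and without replicate 9 it was 49. A fit of only the groups compared, whose spread comes from these 5 libraries alone, called 12 genes, 0 higher and 12 lower. The direction of all 75 genes was kept whichever of the 5 libraries was left out. The calls of Gm28048, Ccr2 and Ahnak were kept in all 5 of these fits, and 9 genes, among them Xkrx, Il1rn, S100a6, Ccl6, Egr1, Hsp90b1, H2-Eb1 and Fn1, kept theirs in 4 of them.

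Regulators of NF-kB signalling were among the higher genes. Nfkbia, which encodes the inhibitor IkB-alpha that holds NF-kB in the cytoplasm, was at 479 and 581 in the Cxcr2-labelled libraries, against 291, 114 and 125 in WT ZT5. Both Cxcr2-labelled values lay above all 12 other libraries, of which WT ZT5 replicate 5 was the highest. Its log2 difference was 1.71 (SE 0.33, limma adjusted p = 0.0126). Without WT ZT5 replicate 5 it was 2.13 (limma adjusted p = 0.000382), while without Cxcr2-labelled replicate 4 or 5 the adjusted p was 0.0848 or 0.147, and after quantile normalization 0.0522.

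Nfkbiz, a nuclear member of the IkB family that modulates NF-kB target genes, was at 778 and 762 in the Cxcr2-labelled libraries, against 338, 360 and 278 in WT ZT5. The WT ZT13 libraries reached 387, 251 and 409, and no Bmal1-labelled or Cxcr4-labelled library exceeded 329. Its log2 difference from WT ZT5 was 1.25 (SE 0.22, limma adjusted p = 0.00523), and without Cxcr2-labelled replicate 4 or 5 the adjusted p was 0.0798 or 0.0616. Tnfaip3, which encodes the ubiquitin-editing enzyme A20 that shuts off NF-kB signalling, was at 195 and 320 in the Cxcr2-labelled libraries, against 126, 56.8 and 65.9 in WT ZT5. It did not pass against WT ZT5 (log2 difference 1.67, SE 0.45, limma adjusted p = 0.0830), although both values lay above all 12 other libraries. Ier3, an early response gene that NF-kB induces, was at 109 and 118 in the Cxcr2-labelled libraries, against 50.7, 68.2 and 39.6 in WT ZT5, and did not pass (limma adjusted p = 0.175).

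The rest of the NF-kB list did not move as a block. Of 22 members tested, 2 were called higher and 0 lower, with a median log2 difference of 0.07. Nfkb1, the p105 precursor of a subunit, differed by -0.66 (limma adjusted p = 0.247), and Relb, another subunit, by -1.56 (limma adjusted p = 0.424), neither of which passed.

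Promoter windows are shown for Nfkbia and Tnfaip3, which encode inhibitors of NF-kB signalling. Nfkbia passed against WT ZT5, and both passed against the mean of the other groups with the same Cre, as given further on. Against the Bmal1-labelled group alone, Nfkbia passed and Tnfaip3 did not. Windows of 300 bases, 250 before to 50 after the annotated start, were taken from RefSeq on GRCm38.p6, and letters matching the NF-kB-like motif GGNNNTTCC on either strand are in capitals. The windows lie at chr12:55492598-55492897 for Nfkbia and at chr10:19015361-19015660 for Tnfaip3, both on the minus strand and both printed 5′ to 3′ in the direction of the gene.
Nfkbia: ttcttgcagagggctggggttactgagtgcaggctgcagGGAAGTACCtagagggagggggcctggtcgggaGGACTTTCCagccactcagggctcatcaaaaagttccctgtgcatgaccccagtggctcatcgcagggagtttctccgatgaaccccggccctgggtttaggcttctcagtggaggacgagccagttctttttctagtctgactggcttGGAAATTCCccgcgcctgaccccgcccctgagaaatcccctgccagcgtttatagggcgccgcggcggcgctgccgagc
Tnfaip3: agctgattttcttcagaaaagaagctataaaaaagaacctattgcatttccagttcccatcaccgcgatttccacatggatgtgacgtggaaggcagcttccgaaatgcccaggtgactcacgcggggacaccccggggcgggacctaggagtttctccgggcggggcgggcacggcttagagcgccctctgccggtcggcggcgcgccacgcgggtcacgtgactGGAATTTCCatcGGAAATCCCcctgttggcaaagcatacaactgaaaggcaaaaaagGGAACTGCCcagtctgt
The Nfkbia window held 3 matches, whose first bases lay at -211, -178 and -29 from the start. The Tnfaip3 window held 3 matches as well, at -24, -12 and 34, and another RefSeq start of Tnfaip3 has a window with 1 match. The windows of Xkrx and Cxcr1 held 0 matches. Both genes also passed against the mean of the other groups with the same Cre. Against the Bmal1-labelled group alone they did not (limma adjusted p = 0.216 and 0.556). The windows of S100a8 and Cxcr2 held 0 as well, and each Il1rn window held 1. The motif occurred in the windows of 18.4% of 27025 genes, and of 22.1% of the 8189 tested genes among them. Windows of 44 of the 27025 genes, 0.163%, held 3 or more matches. A match of this short motif is a description of the letters and does not show that NF-kB binds there. The windows table holds 12 of the 24 higher genes and 30 of the 51 lower genes, which is under 80%, so a check of motifs over the called genes was void. Nfkbiz and Ctse were not among the windows.

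Ctse and Xkrx rose as well. Ctse (chromosome 1), an aspartic protease of the endosomes, was at 176 and 184 in the Cxcr2-labelled libraries, against 25.3, 56.2 and 61.6 in WT ZT5. The 12 other libraries ranged up to 69.2, in a Cxcr4-labelled library, so the groups were well apart. The log2 difference was 1.99 (SE 0.38, limma adjusted p = 0.0130). In the fit without WT ZT5 replicate 5 it was 1.60 (limma adjusted p = 0.0760), and without Cxcr2-labelled replicate 4 or 5 the adjusted p was 0.115 or 0.117. Xkrx, a member of the XK family of membrane proteins, was at 1123 and 470 in the Cxcr2-labelled libraries, against 73.1, 54.9 and 202 in WT ZT5. The Cxcr2-labelled values were more than 2-fold apart, yet both exceeded all other libraries, the next being a Bmal1-labelled one at 291. Its log2 difference of 2.95 (SE 0.46, limma adjusted p = 0.00374) was the largest among the higher genes, and without Cxcr2-labelled replicate 4 its adjusted p was 0.112.

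**Figure D2:**
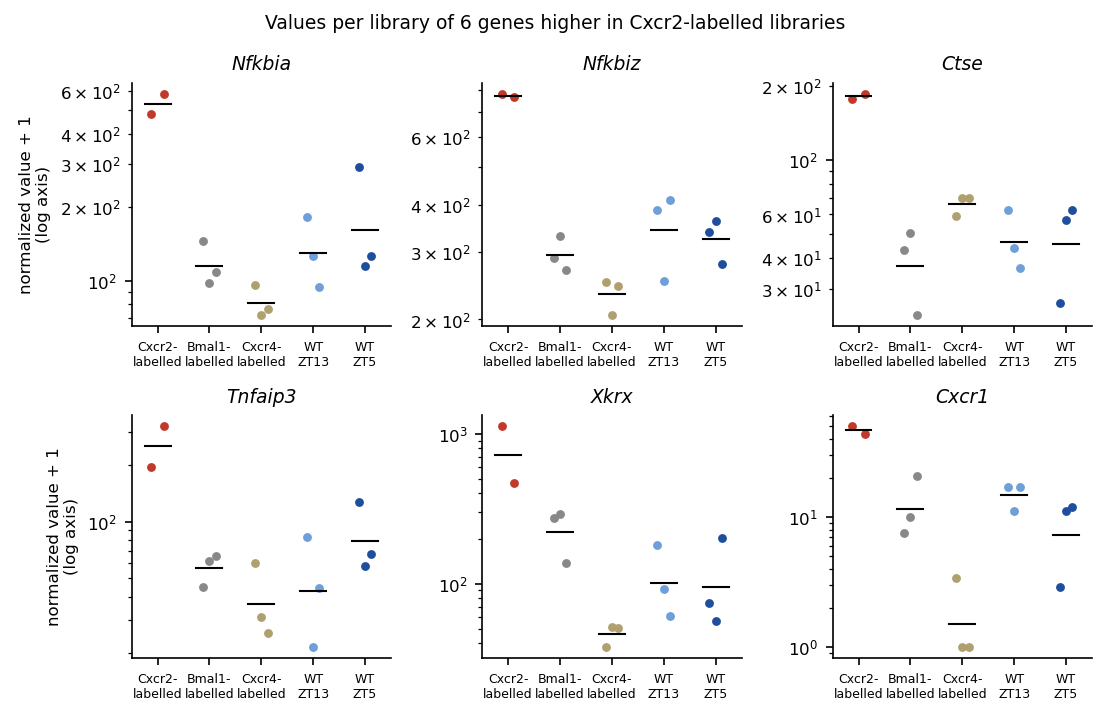
Normalized value + 1 (log axis) in every library for Nfkbia, Nfkbiz, Ctse, Tnfaip3, Xkrx and Cxcr1, with a bar at the geometric mean of each group. The 2 Cxcr2-labelled libraries lie above the 12 other libraries in each panel, although Tnfaip3 and Cxcr1 did not pass against WT ZT5.

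The secreted or calcium-binding proteins S100a8, S100a6 and Il1rn were higher than in WT ZT5. S100a8, a subunit of calprotectin, was at 3127 and 3617 in the Cxcr2-labelled libraries, against 1008, 1914 and 1454 in WT ZT5 (log2 difference 1.25, SE 0.25, limma adjusted p = 0.0193). After quantile normalization the S100a8 difference was 0.79 and did not pass (limma adjusted p = 0.0639). S100a6, another calcium-binding protein of that family, was at 601 and 568 in the Cxcr2-labelled libraries, against 165, 297 and 218 in WT ZT5 (limma adjusted p = 0.00472). Il1rn, the secreted antagonist of the interleukin-1 receptor, was at 410 and 318 in the Cxcr2-labelled libraries, against 90.8, 193 and 149 in WT ZT5 (limma adjusted p = 0.00523).

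The genes S100a8, S100a6 and Il1rn differed from Nfkbia in one respect: the other Mrp8Cre groups were also high. For Il1rn, the Bmal1-labelled libraries had 330, 320 and 309 and the Cxcr4-labelled libraries 356, 331 and 377, so that Cxcr2-labelled replicate 5 lay within their range. The log2 difference of Il1rn between the Cxcr2-labelled and the mean of the other Mrp8Cre groups was 0.10 (limma adjusted p = 0.887). For S100a8 it was -0.21 (limma adjusted p = 0.766) and for S100a6 0.38 (limma adjusted p = 0.526).

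The chemokine Ccl6 was at 2469 and 1900 in the Cxcr2-labelled libraries, against 738, 1088 and 1126 in WT ZT5 (log2 difference 1.16, limma adjusted p = 0.00523). Tyrobp, the adaptor DAP12 that carries an activation motif for myeloid receptors, rose by 0.93 (limma adjusted p = 0.0388), and the small surface glycoprotein Cd24a by 1.05 (limma adjusted p = 0.0310). Tmsb4x, which binds actin monomers, was at 8516 and 7164 in the Cxcr2-labelled libraries, against 3213, 4455 and 3968 in WT ZT5 (limma adjusted p = 0.0310). The cystine transporter Slc7a11 rose by 0.91 and the sorting adaptor subunit Ap1s3 by 1.47 (limma adjusted p = 0.0388 for both). Cacfd1, Itm2b, Plp2 and Tmem154 rose as well, with log2 differences of 1.16, 1.01, 1.10 and 0.96. Without WT ZT5 replicate 5, Ccl6, Itm2b and Tmsb4x still passed (limma adjusted p = 0.00445, 0.0145 and 0.0275). Tyrobp, Cd24a, Slc7a11, Ap1s3, Cacfd1, Plp2 and Tmem154 then did not, with limma adjusted p-values from 0.0649 for Cacfd1 to 0.209 for Plp2. After quantile normalization Tyrobp, Cd24a, Tmsb4x, Slc7a11, Ap1s3 and Plp2 did not pass, with adjusted p-values from 0.0656 for Slc7a11 to 0.275 for Tmsb4x. Against the mean of the other Mrp8Cre groups, Ap1s3 and Cacfd1 passed as higher (limma adjusted p = 0.00587 and 0.00472). Ccl6, Tyrobp, Cd24a, Tmsb4x, Slc7a11, Itm2b, Plp2 and Tmem154 did not pass there, with limma adjusted p-values from 0.552 for Ccl6 to 0.965 for Plp2.

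Of the 24 higher genes, 6 are predicted genes. For 5 of them, Gm10800, Gm10801, Gm10717, Gm10719 and Gm26870, between 35.8% and 63.5% of the 31-base words of a gene's transcripts also occur in the other 4, so reads may be divided between them and they are uncertain as separate calls. Gm26870 was at 13984 and 11246 in the Cxcr2-labelled libraries, against 1284, 2880 and 6577 in WT ZT5. Its Bmal1-labelled values, 8899, 10793 and 9038, came close to the Cxcr2-labelled ones. The sixth, Gm17334, overlaps Irf1 on the opposite strand, and strand use in the counting was not given in the sources used here. Ccl6, Plp2 and Irf8 also overlap another gene (E230016K23Rik and Prickle3 on the opposite strand, Gm20388 on the same strand), so their reads may be shared.

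The lower genes that were abundant in WT neutrophils are described next. Egr1, an immediate early transcription factor, was at 52.9 and 86.4 in the Cxcr2-labelled libraries, against 685, 1333 and 736 in WT ZT5. The mean in the Cxcr2-labelled libraries was 7.59% of that in WT ZT5, a log2 difference of -3.68 (SE 0.58, limma adjusted p = 0.00374), and without Cxcr2-labelled replicate 4 its adjusted p was 0.0798. Egr1 was high in WT ZT13 (1353, 961 and 796) and in the Bmal1-labelled libraries (1047, 868 and 280), and lower still in the Cxcr4-labelled libraries (6.79, 1.22 and 22.3). The Cxcr2-labelled group thus lay between them: Egr1 passed as lower than in Bmal1-labelled libraries (limma adjusted p = 0.0117) and as higher than in Cxcr4-labelled libraries (limma adjusted p = 0.000845).

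Egr1 did not move with the other immediate early factors. Of 18 tested, 0 were called higher and 2 lower, the other being Klf4, a factor of monocyte differentiation, and the median log2 difference was -0.01. Fosb was at 644 and 456 in the Cxcr2-labelled libraries, against 403, 332 and 301 in WT ZT5, and did not pass (limma adjusted p = 0.512). Atf3 was at 94.1 and 81.8 in the Cxcr2-labelled libraries, against 43.5, 40.7 and 65.1 in WT ZT5, and did not pass (limma adjusted p = 0.323).

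Ahnak, a giant scaffold protein linked to calcium channels, had the smallest p of the comparison. It was at 64.4 and 76.5 in the Cxcr2-labelled libraries, against 1091, 372 and 629 in WT ZT5 (log2 difference -3.16, SE 0.35, limma adjusted p = 3.44e-05). Bmal1-labelled libraries were as low (84.7, 58.0 and 61.4), and Cxcr4-labelled libraries were at 917, 1305 and 1124. Without WT ZT5 replicate 5 the difference was -2.77 (limma adjusted p = 0.000108).

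Hsp90b1, the endoplasmic reticulum chaperone GRP94, was at 25.3 and 32.6 in the Cxcr2-labelled libraries, against 183, 106 and 98.9 in WT ZT5 (log2 difference -2.07, SE 0.33, limma adjusted p = 0.00374). Both values lay below all 12 other libraries, and without Cxcr2-labelled replicate 4 the adjusted p was 0.0626. Hsp90b1 did not pass against the mean of the other Mrp8Cre groups (log2 difference -0.75, limma adjusted p = 0.305). Against WT ZT13 it passed as lower (log2 difference -1.67, limma adjusted p = 0.0288). Among 14 endoplasmic reticulum chaperones and related factors tested, with a median of -0.39, Hsp90b1 was the only gene called against WT ZT5. Gm25745, also called lower, lies within Hsp90b1 on the same strand, so the same reads may bear on both.

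Capg, a protein that caps actin filaments, was at 6.83 and 10.6 in the Cxcr2-labelled libraries, against 50.5, 25.8 and 34.2 in WT ZT5 (limma adjusted p = 0.0302). No other library of the series was as low. Leaving out any library other than WT ZT5 replicate 8 ended the Capg call, with adjusted p-values up to 0.217. Cybb, the membrane subunit of the NADPH oxidase that produces superoxide, was at 248 and 137 in the Cxcr2-labelled libraries, against 591, 329 and 453 in WT ZT5 (log2 difference -1.27, SE 0.28, limma adjusted p = 0.0306). WT ZT13 had Cybb values of 147, 281 and 269, within which the mean of the Cxcr2-labelled libraries falls. Bmal1-labelled libraries were as low (212, 214 and 171), and Cxcr4-labelled libraries were at 1474, 1746 and 1583. Without WT ZT5 replicate 5 the limma adjusted p for Cybb was 0.125. Its log2 difference was -0.84 without Cxcr2-labelled replicate 5 and -1.69 without replicate 4. Ppp1r15b, a regulatory subunit of the phosphatase that restores translation after stress, was at 79.3 and 104 in the Cxcr2-labelled libraries, against 190, 186 and 172 in WT ZT5 (limma adjusted p = 0.0318), below all 12 other libraries. Its call was kept only when WT ZT5 replicate 8 was the library left out.

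**Figure D3:**
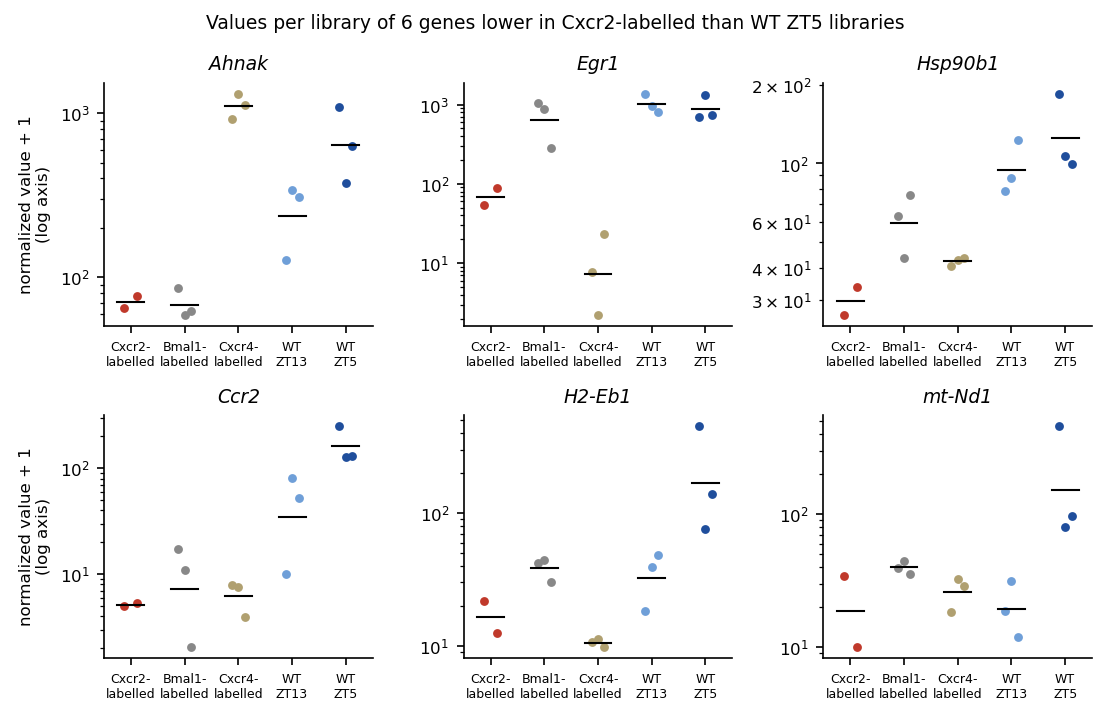
Normalized value + 1 (log axis) in every library for Ahnak, Egr1, Hsp90b1, Ccr2, H2-Eb1 and mt-Nd1, with a bar at the geometric mean of each group. Ahnak was about as low in Bmal1-labelled libraries as in the Cxcr2-labelled ones, Egr1 was lower still in Cxcr4-labelled libraries, and for Ccr2, H2-Eb1 and mt-Nd1 WT ZT5 replicate 5 was the highest point of its group.

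Of the 51 lower genes, 9 were on the marker lists of other blood cells, 5 of monocytes and macrophages and 4 of B cells and MHC class II. Klf4 is also on the list of immediate early factors, and Spn on that of adhesion and homing receptors. Spn was at 130, 241 and 227 in Cxcr4-labelled libraries, where the monocyte and macrophage markers summed to between 1435 and 1525. In such sorted samples, fewer cells of a type and less RNA per cell cannot be told apart. Ccr2, the receptor that brings monocytes out of the marrow, was at 3.97 and 4.36 in the Cxcr2-labelled libraries, against 248, 126 and 131 in WT ZT5 (log2 difference -4.96, SE 0.80, limma adjusted p = 0.00374). When WT ZT5 replicate 5 was left out, the Ccr2 difference was -4.65 (limma adjusted p = 0.0253). Irf8, a factor of monocyte and B cell development, had no read in either Cxcr2-labelled library, against 106, 9.71 and 29.3 in WT ZT5, at least 71.6-fold lower when 3 reads per library are taken as the floor (limma adjusted p = 0.0303). Leaving out WT ZT5 replicate 5 made this Irf8 bound 28.9-fold and the adjusted p 0.199. Of 18 monocyte and macrophage markers tested, 5 were called lower (Ccr2, Fn1, Irf8, Klf4 and Spn) and 0 higher, and the median log2 difference was -1.60, against -0.07 for all genes. The summed level of these 18 genes was 2089 and 1934 in the Cxcr2-labelled libraries, against 3633, 2607 and 3208 in WT ZT5.

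Of 19 B cell and MHC class II markers tested, 4 were called lower (H2-Eb1, Ebf1, Cd74 and Fcmr), 0 higher, and all 19 had a negative difference, with a median of -2.91. H2-Eb1, a chain of the class II molecule that presents antigen, was at 20.7 and 11.5 in the Cxcr2-labelled libraries, against 450, 74.3 and 137 in WT ZT5 (log2 difference -3.35, limma adjusted p = 0.00374). Fcmr, the receptor for IgM, had no read in either Cxcr2-labelled library, against 84.9, 12.2 and 19.0 in WT ZT5, at least 57.3-fold lower against the same floor (limma adjusted p = 0.0399). Leaving out WT ZT5 replicate 5 made this Fcmr bound 23.1-fold and the adjusted p 0.229. Fcmr, H2-DMa and Ly6d were at 0 reads in both Cxcr2-labelled libraries. Without WT ZT5 replicate 5 the median of the B cell list was -1.95 and that of the monocyte list -1.38, and 1 of the 4 B cell and 2 of the 5 monocyte markers kept their call. The part that such cells play in the other called genes was not tested.

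The 3 WT ZT5 libraries were not all alike in these markers, and low values were not particular to the Cxcr2-labelled group. The B cell sum was 294 and 276 in the Cxcr2-labelled libraries, 468, 400 and 329 in Bmal1-labelled libraries, 158, 210 and 117 in Cxcr4-labelled libraries and between 139 and 498 in WT ZT13. All of these lay below WT ZT5 replicate 8, the lowest of its group at 531. Against the mean of the other Mrp8Cre groups, 0 monocyte and 0 B cell markers were called in the Cxcr2-labelled libraries. In the other direction, 20 neutrophil markers summed to 30889 and 36196 in the Cxcr2-labelled libraries, against 14360, 24379 and 21910 in WT ZT5. High sums were not particular to this group: Bmal1-labelled libraries had 30301, 31532 and 30171 and Cxcr4-labelled libraries 38979, 50244 and 47671. Of the 20, 19 had a positive difference from WT ZT5, the exception being Cxcr2 (-0.30). The median was 0.77, which became 0.46 after quantile normalization and 0.49 without WT ZT5 replicate 5. S100a8 was the 1 neutrophil marker called. T and NK cell markers (7 tested), red cell transcripts (20), platelet and megakaryocyte markers (17), eosinophil, basophil and mast cell markers (6) and dendritic cell markers (11) had 0 limma calls in either direction, with 1, 1, 0, 2 and 3 members at an unadjusted p under 0.05.

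**Figure D4:**
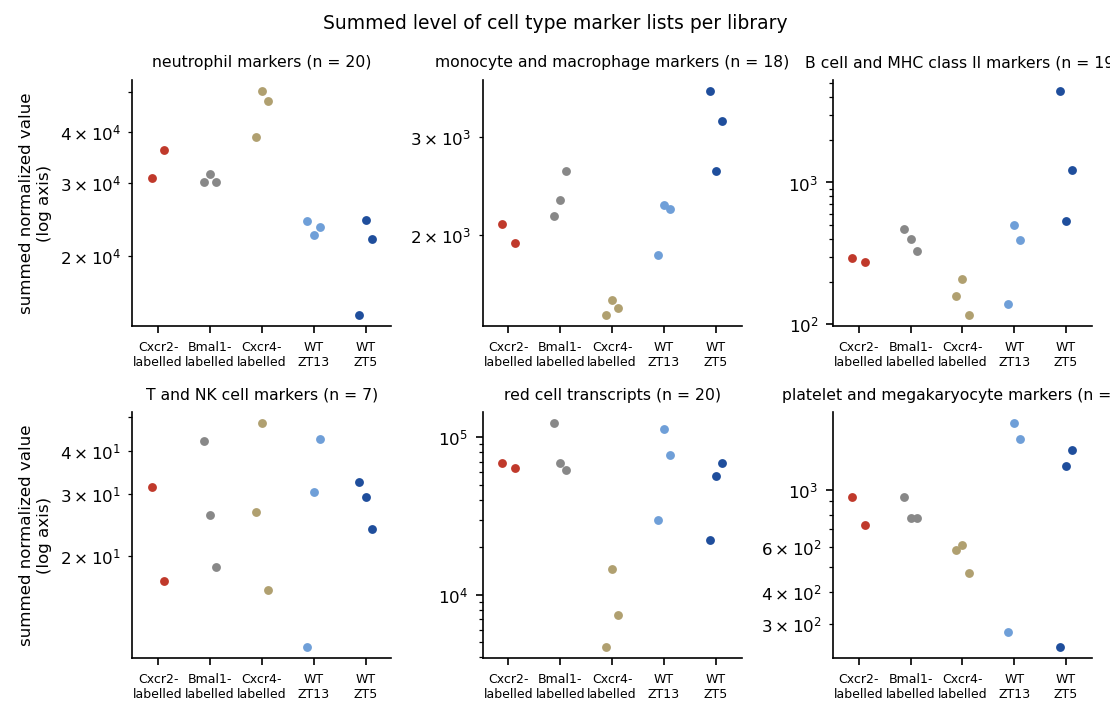
Summed normalized value (log axis) of 6 marker lists in each library, by group. In the B cell panel the Cxcr2-labelled libraries, at 294 and 276, lie below the 3 WT ZT5 libraries, the highest of which is replicate 5 at 4395, and in the neutrophil panel they lie above them.

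Mitochondrially encoded transcripts were lower as well. Of 8 tested, 4 were called lower (mt-Nd1, mt-Nd6, mt-Nd5 and mt-Co1), and all 8 had a negative difference, with a median of -1.62. mt-Nd1, a subunit of respiratory complex I, was at 33.5 and 8.96 in the Cxcr2-labelled libraries, against 459, 79.0 and 96.4 in WT ZT5 (log2 difference -3.04, SE 0.59, limma adjusted p = 0.0130). WT ZT5 replicate 5 was more than 4-fold above the other WT ZT5 libraries, and without it the mt-Nd1 difference was -2.25 and did not pass (limma adjusted p = 0.103). The list median was then -1.04, and none of the 4 mitochondrial genes kept its limma call (0 of 4, adjusted p-values from 0.0813 for mt-Co1 to 0.114 for mt-Nd6). For mt-Nd1, no library of the other groups reached the WT ZT5 levels. Bmal1-labelled libraries had 38.5, 43.5 and 34.8, Cxcr4-labelled libraries 17.4, 31.3 and 27.9, and the highest WT ZT13 library 30.7. Against the mean of the other Mrp8Cre groups the list median was -0.04, with 0 members called higher and 0 lower. mt-Nd5 and mt-Nd6 overlap on opposite strands and may share reads.

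The remaining lower genes were mostly at low levels. In 35 of the 51 the mean of the Cxcr2-labelled libraries was under 20, and in 42 WT ZT5 replicate 5 was the highest WT ZT5 library, which was so for 40.3% of all genes. Slc12a2, a sodium, potassium and chloride cotransporter, was at 0.220 and 0.230 in the Cxcr2-labelled libraries, which is 1 read each, against 54.9, 40.5 and 51.7 in WT ZT5 (limma adjusted p = 0.00538). Its WT ZT5 values were close together, and without replicate 5 it still passed (limma adjusted p = 0.0357), but without Cxcr2-labelled replicate 4 or 5 it did not (limma adjusted p = 0.0626 and 0.0544). Cblb, a ubiquitin ligase that restrains lymphocyte signalling, had no read in the Cxcr2-labelled libraries, against 79.6, 12.9 and 24.7 in WT ZT5 (limma adjusted p = 0.0354). The guanine nucleotide exchange factor Rasgrp1, active mainly in lymphocytes, likewise had none, against 42.1, 9.71 and 16.3 in WT ZT5 (limma adjusted p = 0.0364). Lrp1, a large endocytic receptor of macrophages, was at 19.2 and 23.2 in the Cxcr2-labelled libraries, against 429, 143 and 254 in WT ZT5 (limma adjusted p = 0.0386). S1pr5, a sphingosine phosphate receptor, had 1 read and 0 reads in the Cxcr2-labelled libraries, against values of 19.1, 7.60 and 17.3 in WT ZT5 (limma adjusted p = 0.0386). Without WT ZT5 replicate 5, Cblb, Rasgrp1, Lrp1 and S1pr5 did not pass, with adjusted p-values of 0.217, 0.209, 0.215 and 0.179.

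Gm28048 had the largest fitted difference, with no read in the Cxcr2-labelled libraries, against 71.1, 28.5 and 31.5 in WT ZT5 (at least 64.7-fold lower, limma adjusted p = 0.00374), and its call was kept whichever library was left out. It overlaps Commd1 and B3gnt2 on the same strand, and 1 Bmal1-labelled library also had none, so its value is uncertain. Gm20716 likewise overlaps Adnp and Dpm1.

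The machinery around chemokine receptors was described from lists. Of 33 tested genes of signalling downstream of Gi-coupled receptors, 0 were called higher and 1 lower, with a median log2 difference of 0.21. The called gene was Itpr1, a calcium release channel, at 4.63 and 2.53 in the Cxcr2-labelled libraries, against 127, 19.8 and 52.3 in WT ZT5 (limma adjusted p = 0.0310, and 0.223 without WT ZT5 replicate 5). The inhibitory G protein subunits Gnai3 and Gnai2 differed by 0.72 and 0.62 and did not pass (limma adjusted p = 0.0978 and 0.203). Of 15 other chemoattractant receptors, limma called 0 (6 had an unadjusted p under 0.05), and 13 had a positive difference, with a median of 0.50. The formyl peptide receptor Fpr2 came closest, at 287 and 313 in the Cxcr2-labelled libraries, against 112, 203 and 181 in WT ZT5 (limma adjusted p = 0.0659).

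Granule genes were not called by limma in either direction, although 8 gelatinase, 6 specific and 4 azurophil granule genes had an unadjusted p under 0.05. All 16 tested genes of gelatinase granules and late maturation had a positive difference, with a median of 0.66, where 45.8% of all genes had one. The median was 0.45 after quantile normalization and 0.37 without WT ZT5 replicate 5. Slpi, a protease inhibitor, was nearest to the threshold (limma adjusted p = 0.0600), followed by Retnlg and Mmp9 (0.0767 and 0.0882). For specific granules (16 tested) the median was 0.42 and for azurophil granules (8 tested) 0.48, with 0 calls in either direction in both. Of 20 adhesion and homing receptors, Cd24a was called higher and Spn, the sialomucin CD43, lower. Among 15 genes of the interleukin-1 system, Il1rn was called, 14 had a positive difference, and Il1b itself, at 4268 and 4590 in the Cxcr2-labelled libraries, against 2427, 3401 and 3118 in WT ZT5, did not pass (limma adjusted p = 0.212).

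**Figure D5:**
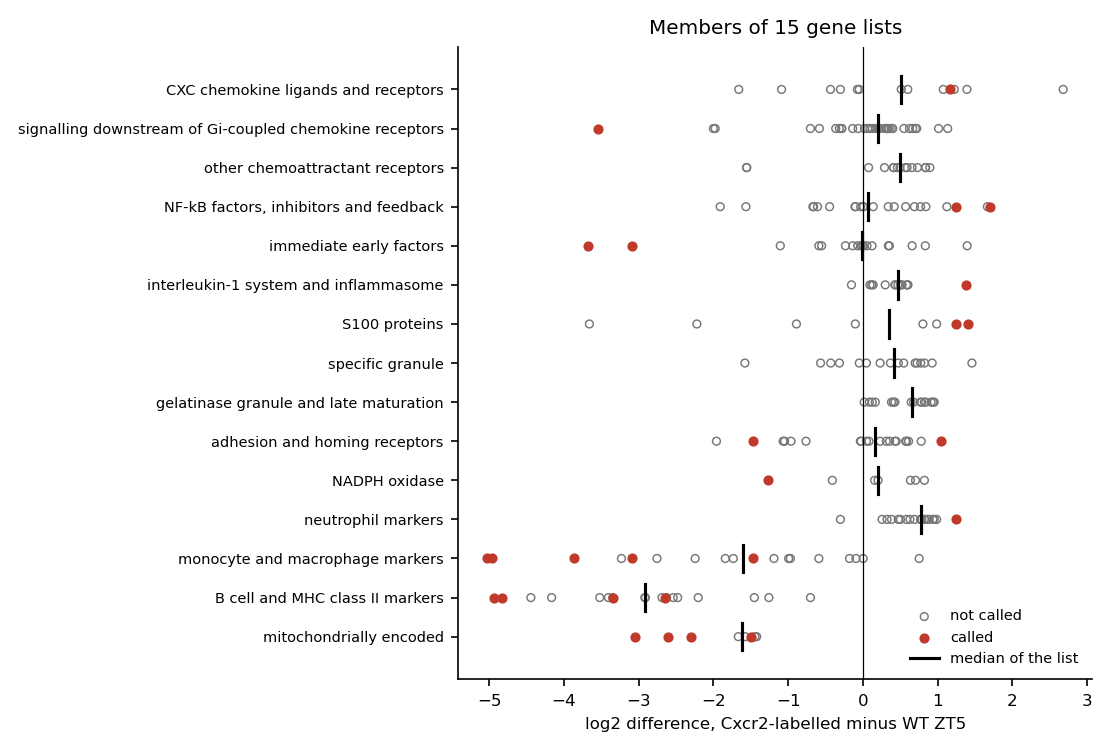
Log2 difference, Cxcr2-labelled minus WT ZT5, of each tested member of 15 gene lists, with called members filled and a bar at the list's median. The NF-kB list has 2 called members at its upper end around a median of 0.07, whereas the B cell list lies wholly below 0, with a median of -2.91.

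Lists in which limma called 0 members, with 1 to 8 members each at an unadjusted p under 0.05, were annexins (8 tested, median -0.19), survival and death genes (23, median 0.14), eicosanoid synthesis (9, median 0.28), interferon-stimulated genes (26, median 0.46), glucocorticoid-induced genes (12, median 0.38), clock genes (11, median -0.22), mRNA decay and MAP kinase feedback (16, median 0.21), and proliferation and progenitor genes (10, median -0.98). The CXC chemokine list had 7 of 13 members positive and a median of 0.51, which was -0.28 without WT ZT5 replicate 5, and Ccl6, placed in it as a chemokine, was its called member. S100 proteins had 2 of 8 members called higher and a median of 0.35, which was -0.06 without WT ZT5 replicate 5. Tyrobp was the 1 called gene of 19 Fc and phagocytic receptors and adaptors (median 0.43), Cybb that of 7 NADPH oxidase subunits (0.20) and Ctse that of 19 lysosomal proteases (-0.06). Of 26 cytoskeletal and scaffold genes Tmsb4x was called higher and Ahnak lower, and the median of 0.14 became -0.11 after quantile normalization. Calcium and ion transport (20 tested, median -0.23) and lipoprotein receptors and cholesterol efflux (13 tested, median -0.68) each had 2 members called lower, among them Slc12a2 and Lrp1. Among clock genes, Cry1 differed by 0.76 (limma adjusted p = 0.449) and Per2 by 0.46 (limma adjusted p = 0.730), so that no difference in the clock was detectable with these libraries.

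To see which differences were shared by mice with the same Cre, the Cxcr2-labelled libraries were set against the mean of the Bmal1-labelled and Cxcr4-labelled groups. This comparison uses the same Cxcr2-labelled libraries as the first but no WT library. It called 89 genes, 0.791% of those tested, with 43 (0.382%) higher and 46 (0.409%) lower, and the median over all genes was 0.02. Of the 24 genes higher than in WT ZT5, 11 were also called higher here, and of the 51 lower genes 8 were also called lower. Among these, only Ctse, Nfkbia and Nfkbiz (higher) and Capg (lower) were also called against the Bmal1-labelled group alone. Ahnak and Cybb, called lower here, differed from the Bmal1-labelled group by 0.06 and -0.10 (limma adjusted p = 0.982 and 0.948). A call against this mean can therefore rest on the Cxcr4-labelled group alone.

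Cxcl2, a ligand of Cxcr2 that neutrophils themselves make, had the largest difference. It was at 193 and 300 in the Cxcr2-labelled libraries, against 29.8, 30.9 and 0.522 in Bmal1-labelled and 11.6, 0 and 0 in Cxcr4-labelled libraries (log2 difference 5.55, SE 0.90, limma adjusted p = 0.00133). WT ZT5 replicate 5 had a Cxcl2 value of 299, as high as the Cxcr2-labelled libraries, while WT ZT5 replicates 8 and 9 were at 66.1 and 54.2, so that the first comparison showed no call (limma adjusted p = 0.649). NF-kB feedback genes passed: Nfkbia with a log2 difference of 2.45 (limma adjusted p = 2.58e-05), Tnfaip3 with 2.46 (limma adjusted p = 0.00141), Ier3 with 1.99 (limma adjusted p = 0.00309) and Nfkbiz with 1.56 (limma adjusted p = 4.94e-05). These were 4 of the 22 members of the list, and 0 were called lower.

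Of these 89 genes, 87 were also called in the same direction against the Cxcr4-labelled group alone, and 8 against the Bmal1-labelled group alone. The secondary granule gene Ltf, lactoferrin, was at 9.92 and 37.9 in the Cxcr2-labelled libraries and 25.9, 66.8 and 27.0 in Bmal1-labelled libraries, against 2958, 4201 and 3718 in Cxcr4-labelled ones. Camp, Ngp and Chil3 had the same arrangement. Ptgs2 (cyclooxygenase) and Fosb were high in both the Cxcr2-labelled and the Bmal1-labelled libraries. Bmpr1a, a receptor for bone morphogenetic proteins, was instead low only in the Cxcr2-labelled libraries among the Cre groups, at 3.75 and 10.6, against 57.5, 54.3 and 60.7 in Bmal1-labelled and 44.7, 51.1 and 61.2 in Cxcr4-labelled libraries (log2 difference -2.91, limma adjusted p = 0.000992). WT ZT5 had Bmpr1a values of 12.6, 37.2 and 40.4, and that difference did not pass (limma adjusted p = 0.0800). Capg was lower here too (log2 difference -3.30, limma adjusted p = 1.80e-05).

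The groups were then compared one at a time, a step added after the data were seen. Against Bmal1-labelled libraries 15 genes were called (0.133%), against Cxcr4-labelled libraries 465 (4.13%) and against WT ZT13 15 (0.133%). Ctse, Nfkbia and Nfkbiz were the 3 genes called in the same direction against each of the 4 other groups, all higher. Nfkbia differed by 2.20 from Bmal1-labelled (limma adjusted p = 0.00257), by 2.71 from Cxcr4-labelled (limma adjusted p = 5.20e-06) and by 2.03 from WT ZT13 libraries (limma adjusted p = 0.00368). Nfkbiz differed by 1.38, 1.73 and 1.17 from the same groups (limma adjusted p = 0.00343, 1.02e-05 and 0.0148). Ctse differed by 2.29, 1.45 and 1.97 (limma adjusted p = 0.00599, 0.0265 and 0.0248). With edgeR each of the 3 genes passed in 3 of the 4 comparisons, and with DESeq2 in all 4. After quantile normalization Ctse and Nfkbia passed in 3 and Nfkbiz in 4, and with a replicate block Ctse passed in 4 and Nfkbia and Nfkbiz in 2. Ctse against Cxcr4-labelled libraries did not pass when any 1 of those 3 libraries was left out (limma adjusted p = 0.0843, 0.0607 and 0.0649). Against WT ZT13, Ctse did not pass without WT ZT13 replicate 8 or 9 (limma adjusted p = 0.117 and 0.140), nor Nfkbiz without replicate 8 (limma adjusted p = 0.146). Without Cxcr2-labelled replicate 4, Nfkbia passed in 3, Nfkbiz in 1 and Ctse in 0, and without replicate 5 the numbers were 1, 1 and 0.

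Values above or below every other library were also counted, as a description without a test. Both Cxcr2-labelled values lay above all 12 other libraries for 205 genes (1.82%) and below all of them for 157 (1.39%). These included 9 of the 24 genes called higher and 8 of the 51 called lower than in WT ZT5. Among the 9 were Xkrx, Ctse, Nfkbia, Nfkbiz, Ap1s3, Cacfd1 and the predicted genes Gm17334 and Gm26870. The 8 were Hsp90b1, Capg, Ppp1r15b, Pde3b, Slc12a2, Cblb, Ttbk2 and Vars. For Cblb, Slc12a2 and Vars this rests on few reads. Cblb was at 0, against 0.175 in WT ZT13 replicate 2 and 0.186 in Bmal1-labelled replicate 3, which is 1 read each. Slc12a2 was at 0.220 and 0.230, against 0.524 in WT ZT13 replicate 2, and Vars at 0, against 0.974 in WT ZT13 replicate 9.

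The 2 Cxcr2-labelled libraries also differed from each other. Wfdc17, a secreted protease inhibitor-like protein, was at 46.9 in replicate 4 and 424 in replicate 5, and the metalloreductase Steap4 at 280 and 1341. Ifitm1, an interferon-inducible membrane protein, was at 145 and 805. In the other direction, Rpl9 was at 430 and 44.8 and Gas7 at 41.0 and 4.59. Steap4 and Wfdc17 passed as higher than the mean of the other Mrp8Cre groups (limma adjusted p = 0.0128 and 0.0217), and for Wfdc17 replicate 4, at 46.9, lay below all 3 Bmal1-labelled libraries (72.5, 93.2 and 106).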

How the data were processed

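Per the submitters' processing notes, CASAVA 1.8.2, cutadapt, RSEM 1.2.3 and GRCm38 were used. The authors deposited normalized signal values of 11288 genes in 14 libraries. Each was a whole number of reads times 1 constant per library (100% of values, tolerance 1e-06), so reads were recovered. The constants equalled TMM scaling to within 4.44e-14%, and the normalization step was not given in the sources used here. Symbols came from the annotation (11188 identifiers matched, 100 not).

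A single limma fit (3.58.1, R 4.3.3, with trend) on log2(value + 1) held 14 libraries in 5 groups. It tested 11255 genes whose mean value was 1 or more, with Benjamini-Hochberg adjustment over all of them. This scale understates the change of low genes. As alternatives, the pseudocount was 0.1, the filter was dropped or raised to a mean of 10, values were scaled by quantile, TMM or DESeq2 size factors, and weights, a replicate block or single omitted libraries were tried. Recovered reads were also tested with edgeR 4.0.16 and DESeq2 1.42.0.

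Named genes were those called against WT ZT5, with Cxcr2, Cxcr1 and Cxcr4, the 4 list members of smallest p among those not called, and 10 each way of the second comparison. Other named genes, such as Tnfaip3, Ier3, Relb and Gnai2, and those that differ between replicates, were chosen after their values were seen. Members, lists (35) and comparisons were chosen with earlier results of these data known. Some genes are not named here but are in the counts. A floor of 3 reads per library covers counting error only, since amplified reads are not independent molecules.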

Additional observations from a re-analysis of the deposited data

How the results depend on the processing

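Against WT ZT5, 75 genes were called (24 higher, 51 lower). A pseudocount of 0.1 gave 41 (14 higher, 27 lower), a mean of at least 10 gave 43 (25 lower, with fewer genes tested), a fit of only the groups compared 12 (0 higher, 12 lower, from 5 libraries), edgeR 17 (9 higher, 8 lower) and DESeq2 332 (86 higher, 246 lower). With quantile normalization and with array weights 15 genes were higher. A fit with the replicate block called 96 genes, 54 of them higher. The groups compared share only replicate number 5, the deviations of those 2 libraries correlated at -0.063 over genes, and the number was not taken to pair samples. Leaving out 1 library gave 19 to 199 called (0 to 81 higher, 11 to 118 lower). The limma fits with 0 genes higher, of only the groups compared and without Cxcr2-labelled replicate 4, had 1421 and 1196 genes at an unadjusted p under 0.05.

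Against the other Mrp8Cre groups, 89 genes were called (43 higher, 46 lower). Only the groups compared gave 165 (79 higher, 86 lower), DESeq2 252 (89 higher, 163 lower) and edgeR 22 lower, and leaving out 1 library gave 44 to 97 (17 to 47 higher, 25 to 52 lower). In the comparisons added after the data were seen, the count against Bmal1-labelled libraries was 5 with edgeR, 88 with DESeq2, 23 with the replicate block and 6 to 18 with 1 library left out. Against Cxcr4-labelled libraries it was 716 with DESeq2 and 237 to 386 with 1 library left out, and against WT ZT13 it was 6 with edgeR, 77 with DESeq2 and 9 to 18 with 1 library left out. The cause of these differences was not tested. None of the 75 genes called against WT ZT5 changed direction under the alternatives run for them, and edgeR called 17 of them and DESeq2 68. Directions of single genes were not followed for the other comparisons, except for Ctse, Nfkbia and Nfkbiz. Over 35 lists and 8 alternatives, 17 of 280 medians moved by more than the spread between replicates. With 2 Cxcr2-labelled libraries, the spread of that group rests on a single difference.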
